A study of Homo sapiens with 8 samples.

Results

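PTPRZ1, ALPK2 and MGLL are 3 protein-coding genes, of 58219 genes listed and 13129 protein-coding genes tested, that were picked for a large change on fluvastatin in the H929 line with little change in the KMS11 line. The genes were selected on those 2 responses, so the responses are given below as a description of the members and carry no test. All 3 passed the filter on low counts. The data are RNA-seq libraries from H929 and KMS11, human multiple myeloma cell lines that carry the t(4;14) translocation. Each line was exposed for 24 hours to 2 µM fluvastatin, an inhibitor of HMG-CoA reductase in the mevalonate pathway, or to ethanol, the solvent, and each of the 4 groups holds 2 libraries. Libraries called untreated below are those in ethanol. No gene was altered experimentally in either line for these libraries, and each line stands for the tumor of 1 donor. The study names KMS11, but not H929, among the lines of its panel with a mutation in FGFR3, a gene the translocation deregulates. The comparison asks how the expression response to the same dose of a statin differs between myeloma lines.

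PTPRZ1 encodes a receptor-type protein tyrosine phosphatase best known from glia and neural progenitors. Its extracellular part binds pleiotrophin, midkine, contactin and tenascins, and its intracellular phosphatase domains act on substrates such as catenins and paxillin. ALPK2 encodes an alpha kinase, a member of a small family of atypical protein kinases, and is known mainly from the heart. MGLL encodes monoacylglycerol lipase, which completes the breakdown of triacylglycerol to glycerol and fatty acid and also degrades the endocannabinoid 2-arachidonoylglycerol. None of the 3 is a marker by which plasma cells are recognized.

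The libraries held 26702515 to 41910446 expected counts each, and all 12 plasma cell and myeloma markers examined reached 1 TPM in H929, where TPM is RSEM's estimate of transcript abundance, scaled for length and depth. In KMS11, 11 of the 12 did, and CD38 did not. Of the 12 markers, 3 were higher and 5 lower on fluvastatin in H929 at an adjusted p under 0.05 in edgeR. In KMS11, 0 were higher and 1 lower. Over all genes tested, 22.7% were higher and 19.3% lower in H929, and 2.58% and 0.533% in KMS11. The number higher in H929 was thus near the share of all genes. Those lower in H929 included SDC1 (CD138), from 122 and 97.7 to 61.1 and 44.1 TPM, a log2 value of -1.08 (SE 0.17, adjusted p = 0.000862). SLAMF7 was lower by 0.98 (SE 0.13, adjusted p = 0.000299) and MZB1 by 1.02 (SE 0.25, adjusted p = 0.00864). The call of MZB1 was lost without the first ethanol or the second fluvastatin library of H929. The 3 higher were NSD2 by 0.42 (SE 0.10, adjusted p = 0.00678), JCHAIN by 0.36 (SE 0.11, adjusted p = 0.0217) and PRDM1 by 0.32 (SE 0.09, adjusted p = 0.0152). The call of NSD2 was lost under 2 of 18 alternatives, and those of JCHAIN and PRDM1 each under 7. The part of this movement in the changes of the 3 members was not tested. FGFR3 and NSD2, the genes deregulated by t(4;14), reached 1 TPM in both lines. In bulk RNA, more cells that express a gene and more RNA per cell cannot be told apart.

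By the GENCODE 44 annotation of GRCh38 (hg38), PTPRZ1 (ENSG00000106278.11) spans chr7:121873089-122062036 on the plus strand. ALPK2 (ENSG00000198796.6) spans chr18:58481247-58629091 on the minus strand. MGLL (ENSG00000074416.13) spans chr3:127689062-128052190 on the minus strand. The 3 genes thus lie on 3 chromosomes. PTPRZ1 and ALPK2 both went from near 0 to a measurable level in H929, so their promoters are shown, as RefSeq gives them on GRCh38.p14, from 250 bases before the start to 50 bases after it, read 5′ to 3′ on the strand of the gene. The PTPRZ1 promoter is chr7:121872911-121873210 on the plus strand and the ALPK2 promoter is chr18:58629042-58629341 on the minus strand. Capitals mark matches to the motifs searched on either strand.
PTPRZ1: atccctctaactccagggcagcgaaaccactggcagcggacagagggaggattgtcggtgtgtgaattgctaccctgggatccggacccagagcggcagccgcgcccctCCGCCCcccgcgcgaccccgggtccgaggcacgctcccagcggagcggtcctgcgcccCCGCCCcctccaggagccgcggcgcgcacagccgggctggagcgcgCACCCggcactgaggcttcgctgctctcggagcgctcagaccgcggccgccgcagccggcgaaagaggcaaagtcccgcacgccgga
ALPK2: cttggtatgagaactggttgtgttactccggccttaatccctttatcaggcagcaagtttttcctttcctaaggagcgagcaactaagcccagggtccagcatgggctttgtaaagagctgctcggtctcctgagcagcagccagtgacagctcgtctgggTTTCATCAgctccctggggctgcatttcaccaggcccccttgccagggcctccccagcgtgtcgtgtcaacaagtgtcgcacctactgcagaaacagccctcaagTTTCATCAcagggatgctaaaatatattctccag
The pair differed in base composition. The PTPRZ1 promoter was 73.3% G and C with 38 CpG dinucleotides, and the ALPK2 promoter was 53.3% G and C with 7, where the median of 35116 promoters was 58.7% with 14. In PTPRZ1 the capitals are 2 matches to the Sp1 motif GGGCGG, which 45% of all promoters held, and 1 match to the KLF motif CACCC, which 59.9% held. In ALPK2 they are 2 matches to TGATGNAA, the motif of C/EBP-ATF response elements, which 3.62% of promoters held at least once. Neither promoter held the AP-1 motif (TGACTCA or TGAGTCA, 4.95% of promoters), the ATF/CRE motif (TGACGTCA, 1.85%), the sterol regulatory element (TCACNCCAC, 1.13%), the E-box CACGTG (7.26%) or TATAAA (11.5%). A looser form of the sterol element, TCACNCNAC, was also not found in either and was held by 2.55% of promoters. A match describes the letters of these windows and is not a binding site, and windows of this length leave out most regulatory sequence.

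PTPRZ1 was barely detected in untreated H929 cells and rose to a low but clear level on fluvastatin. The ethanol libraries of H929 held 9 and 3 expected counts, and the fluvastatin libraries held 255 and 339. As counts scaled for library size (CPM), these were 0.306 and 0.120 in ethanol against 11.2 and 13.7 in fluvastatin. The groups did not overlap, and the lower fluvastatin library lay 36.6-fold above the higher ethanol library. The summed counts gave a 56.5-fold rise with an exact 95% interval for counting error of 32.1 to 110, and the fitted log2 fold change was 5.80 (SE 0.42). The wide interval comes from the 12 counts in ethanol. In KMS11 the ethanol libraries held 27 and 51 counts (0.705 and 1.39 CPM) and the fluvastatin libraries held 21 and 27 (0.758 and 0.705 CPM). These 4 libraries overlapped between treatments, with a ratio of 0.698 in summed counts (interval 0.477 to 1.01) and a log2 fold change of -0.52 (SE 0.38). That value rested on the second ethanol library of KMS11, without which it was 0.02. In ethanol, summed counts were 4.72-fold higher in KMS11 than in H929 (interval 2.55 to 9.52), and in fluvastatin they were 17.2-fold higher in H929 (interval 12.8 to 23.5). The order of the lines was thus opposite in the 2 conditions.

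ALPK2 rose in H929 by a similar factor, but KMS11 had a high level with or without the drug. The ethanol libraries of H929 held 5 and 7 counts (0.170 and 0.280 CPM), and the fluvastatin libraries held 162 and 387 (7.12 and 15.6 CPM). The treated pair differed from each other (11.4 ± 5.99 CPM, SD, n = 2), yet both lay far above ethanol, the lower one by 25.4-fold over the higher ethanol library. The rise was 52.3-fold in summed counts (interval 29.7 to 102) and 5.66 in log2 (SE 0.49), and it was 4.98 without the second fluvastatin library. In KMS11 the counts were 4029 and 3434 in ethanol and 2827 and 3545 in fluvastatin, and scaling for depth brought the 4 libraries to 105, 93.9, 102 and 92.5 CPM. The treatments overlapped there, with a ratio of 0.969 in summed counts (interval 0.937 to 1.002) and a log2 fold change of -0.03 (SE 0.24). Untreated KMS11 held 452-fold more ALPK2 than untreated H929 (interval 258 to 874). In fluvastatin the gap was 8.37-fold (interval 7.67 to 9.15), so treated H929 was still below KMS11 for this gene, whereas for PTPRZ1 it lay above.

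MGLL went the other way in H929, from a low level to a few counts. The ethanol libraries held 90 and 93 counts (3.06 and 3.72 CPM), and the fluvastatin libraries held 3 and 6 (0.132 and 0.242 CPM). The groups did not overlap, with the lower ethanol library 12.7-fold above the higher fluvastatin library. The summed counts were 17.8-fold lower in fluvastatin (interval 9.17 to 39.5), and the fitted log2 fold change was -4.14 (SE 0.37). In KMS11 the gene was at 137 and 165 counts in ethanol (3.58 and 4.51 CPM) and 106 and 181 in fluvastatin (3.83 and 4.72 CPM). These overlapped, with a ratio of 1.08 in summed counts (interval 0.914 to 1.27) and a log2 fold change of 0.09 (SE 0.23). The lines had like levels in ethanol, 1.2-fold higher in KMS11 (interval 0.994 to 1.45), and in fluvastatin KMS11 held 23.0-fold more (interval 11.9 to 50.8). MGLL is thus the member whose lines were near each other in ethanol and far apart in fluvastatin.

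**Figure D1:**
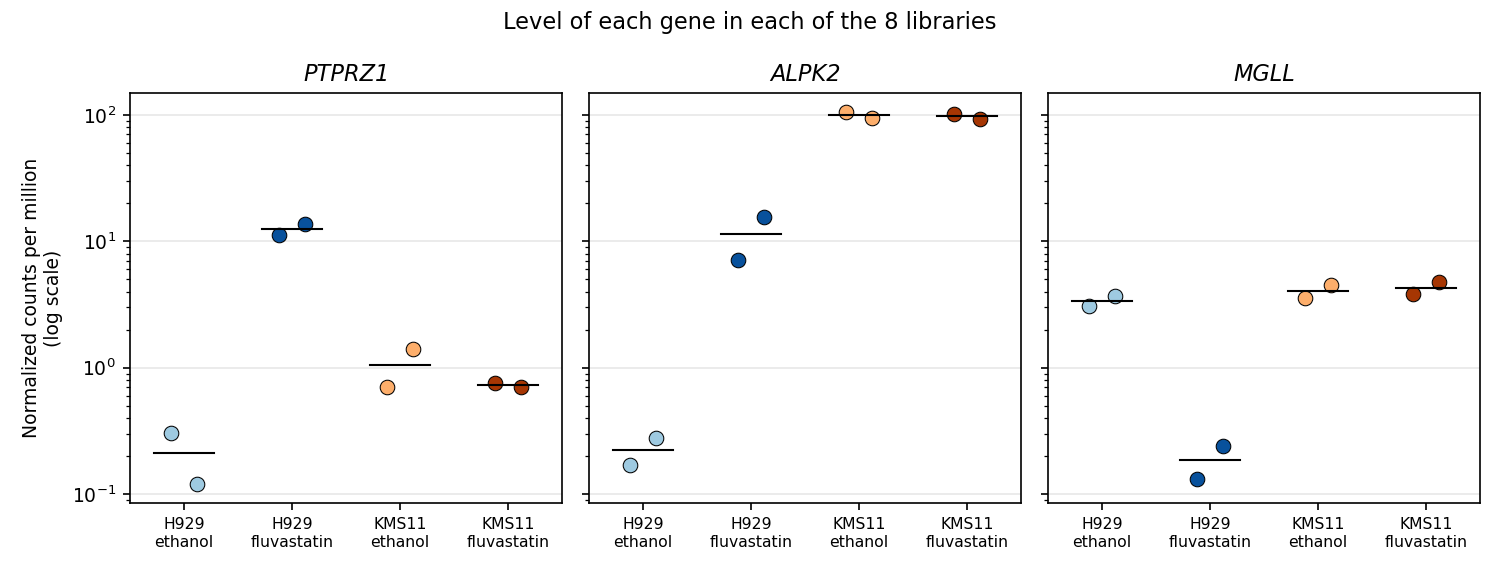
Normalized CPM on a log axis for each gene in H929 and KMS11 under ethanol and fluvastatin, with a point for each of the 2 libraries and a bar at their mean. PTPRZ1 and ALPK2 rose from under 0.31 CPM to 7.12 CPM or more in H929, MGLL fell from 3.06 CPM or more to under 0.25, and in KMS11 the points of the 2 treatments overlapped for each gene.

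Levels of different genes were compared per length, in TPM. In treated H929, PTPRZ1 was at 1.48 and 1.54 TPM and ALPK2 at 0.64 and 1.55, so the genes reached overlapping levels. In untreated H929, MGLL had the highest level of the 3, at 0.55 and 0.84 TPM, against 0.05 in both libraries for PTPRZ1 and 0.01 and 0.03 for ALPK2. In untreated KMS11 the order was ALPK2 at 15.14 and 12.03 TPM, MGLL at 1.12 and 1.18, and PTPRZ1 at 0.10 and 0.16, with no overlap between neighbours in that order.

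Across all 13129 genes tested, 22.7% were higher and 19.3% lower on fluvastatin in H929 at an adjusted p under 0.05, in the quasi-likelihood test of edgeR, with Benjamini-Hochberg adjustment. In KMS11 the shares were 2.58% higher and 0.533% lower. The response in H929 minus that in KMS11, called the difference of responses below, was positive for 11.5% and negative for 11.7%. The count in KMS11, 409 genes, was not steady. It was 63 without the first ethanol library of KMS11, 72 without the second, and 2148 without the second fluvastatin library. The members are not counted against these shares, since both responses chose them. PTPRZ1 had the 15th and ALPK2 the 16th highest log2 fold change in H929, and MGLL the 17th lowest. Among the 15 genes up to PTPRZ1, 10 had a change in KMS11 no larger in size than its own, counting itself; the like numbers were 4 of 16 for ALPK2 and 3 of 17 for MGLL. The difference of responses was 6.32 (SE 0.58) for PTPRZ1, 5.70 (SE 0.57) for ALPK2 and -4.22 (SE 0.46) for MGLL on the log2 scale. The rule that picked the genes gave no numeric limit, so no values just inside and outside one can be named. In a fit of treatment over both lines with the line as a term, the log2 values were 2.38 (SE 1.2) for PTPRZ1, 1.66 (SE 0.88) for ALPK2 and -1.39 (SE 0.71) for MGLL, smaller and with larger errors than in H929 by itself. Between untreated lines, 36.4% of genes were higher and 35.6% lower in H929, and the log2 difference, H929 minus KMS11, was -2.23 (SE 0.49) for PTPRZ1, -8.79 (SE 0.44) for ALPK2 and -0.26 (SE 0.24) for MGLL. These libraries are also the controls of the 2 responses, so the untreated levels are not independent of the choice of genes.

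**Figure D2:**
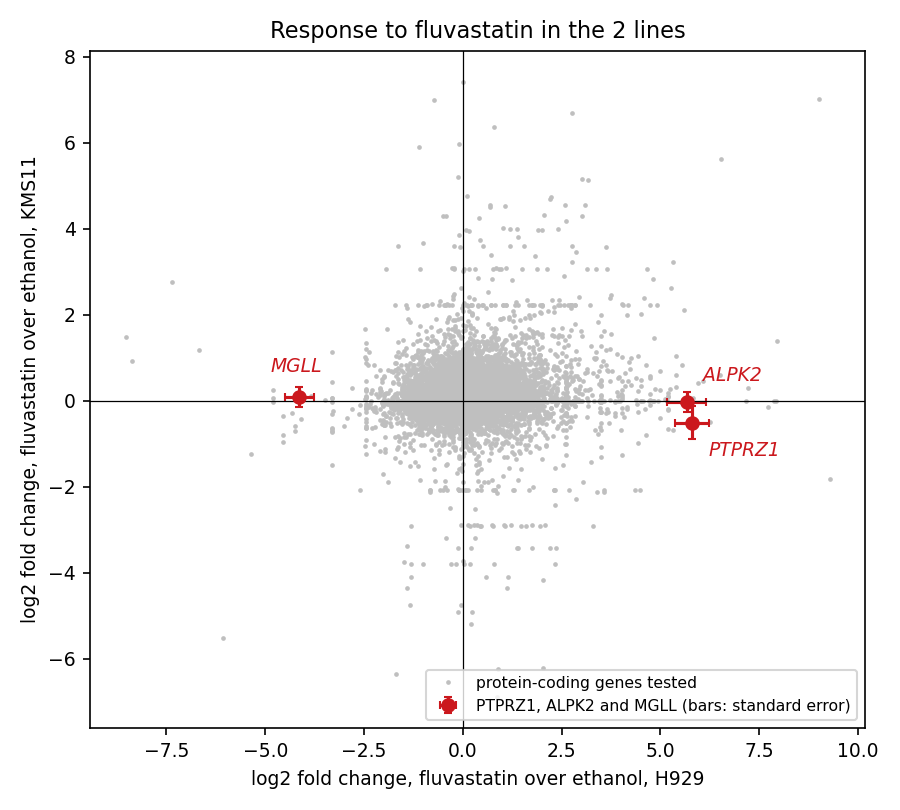
Log2 fold change on fluvastatin in H929 (horizontal) and KMS11 (vertical) for the 13129 protein-coding genes tested (grey points) and the 3 members (red, bars are standard errors of the fit). PTPRZ1 and ALPK2 lie far to the right at 5.80 and 5.66 and MGLL far to the left at -4.14, all within 0.52 of 0 on the vertical axis; lines of grey points are genes with few counts.

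The files also give, for each library, the length of a gene as the mean over its transcripts weighted by their estimated abundance, a measure that did not enter the choice of genes. For PTPRZ1 it was 3667 and 4360 bases in treated H929 and 5044 to 5827 bases over the 4 KMS11 libraries, which did not overlap. How many of all genes have lengths that separate in the same way was not counted, so this is not read as particular to PTPRZ1. The gene has 9 transcripts in the files, from 549 to 8103 bases, and the 2 long coding ones are 8103 and 4627 bases. With 21 to 51 counts in each KMS11 library these lengths are loosely determined, and the ethanol libraries of H929 held too few counts for one. For ALPK2, with 6 transcripts of 555 to 7437 bases, the length was 4906 and 5321 bases in treated H929 and overlapped KMS11. For MGLL it was 2798 and 2235 bases in untreated H929 and 2366 to 2662 bases in KMS11, which also overlapped. No test was made on these lengths, with 2 libraries in a group.

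Genes whose scaled log2 level ran most like that of each member over the 8 libraries were found by Pearson correlation, as a description, since the libraries share lines and treatments. For PTPRZ1 they were CD55 (r = 0.988), which protects cells from complement, NEBL (0.981), an actin-binding protein, ZNF436 (0.980), a zinc finger protein, and CTSL (0.979), a lysosomal protease. All 4 had higher levels in treated H929 and a log2 fold change below 0 in KMS11, a pattern that the choice by correlation favors. For example, NEBL had log2 fold changes of 4.15 in H929 and -0.15 in KMS11. Its mean TPM in KMS11 went the other way, from 0.27 in ethanol to 0.335 in fluvastatin. For ALPK2 they were MED13 (0.998), a subunit of the Mediator kinase module, PDS5B (0.998), a cohesin regulator, ATP2B4 (0.997), a plasma membrane calcium pump, and SUSD1 (0.996). Their log2 fold changes in H929 ran from 0.47 for MED13 to 1.93 for SUSD1, and each had a higher mean TPM in KMS11 than in H929. For MGLL they were MRPL27 (0.996), a mitochondrial ribosomal protein, MCM10 (0.996) and CDC6 (0.995), which act in the start of DNA replication, and PDRG1 (0.995). MCM10 had log2 fold changes of -2.42 in H929 and -0.12 in KMS11, and CDC6 -2.22 and -0.18. Between the members, r was 0.306 for PTPRZ1 and ALPK2, -0.881 for PTPRZ1 and MGLL, and 0.1247 for ALPK2 and MGLL. PTPRZ1 and ALPK2 thus shared a rise in H929 but not an order of levels over all 8 libraries.

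Among ligands, partners and substrates of PTPRZ1, 5 of 14 tested genes were higher and 0 lower on fluvastatin in H929 (19 listed), against 22.7% and 19.3% of all genes. The list's median log2 fold change was 0.29 beside 0.02 over all genes. The ligands pleiotrophin and midkine were close to absent, with PTN at 0.06 TPM or less and MDK at 0.18 or less in every library, and neither was tested. TNC, the tenascin-C ligand of the matrix, was at 0.23 and 0.06 TPM in ethanol and 1.70 and 2.14 in fluvastatin in H929, a log2 rise of 3.45 (SE 0.27, adjusted p = 5.41e-05). In KMS11, TNC had no count in any library, so neither a fold there nor a difference of responses can be given. PXN, paxillin, a focal adhesion protein and substrate, went from 1.95 and 2.11 to 10.4 and 9.67 TPM, a log2 rise of 2.38 (SE 0.14, adjusted p = 3.6e-06). In KMS11 it was at 0.53 and 0.50 TPM in ethanol and 0.59 and 0.62 in fluvastatin, and the difference of responses was 2.13 (SE 0.22, adjusted p = 0.000395). FYN, a Src family kinase, rose by 0.45 (SE 0.12, adjusted p = 0.0139), and ADD1, adducin, by 0.33 (SE 0.09, adjusted p = 0.0111). The 5th gene, CTNNB1 (β-catenin), at 0.24, lost its call under 14 of 18 alternatives, and those of FYN and ADD1 were each lost on leaving out any of 3 of the 4 H929 libraries. In KMS11, 1 gene was higher and 0 lower, beside 2.58% and 0.533% of all genes. It was the adhesion molecule L1CAM, from 0.09 and 0.40 to 1.11 and 0.71 TPM, a log2 rise of 3.22 (SE 0.33, adjusted p = 0.000666). DESeq2 called none of this list in KMS11, and 4 of the 14 had an unadjusted p under 0.05 in edgeR. The median in KMS11 was 0.11, or 0.15 without TNC. PXN was the only gene of the list past the threshold in the difference of responses. At that threshold the difference was positive for 11.5% of all genes and negative for 11.7%.

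Of the other receptor-type tyrosine phosphatases, 8 of 15 tested were higher and 2 lower in H929 (19 listed), beside 22.7% and 19.3% of all genes, with a median of 0.54 beside 0.02. Among the higher genes, the call of PTPRC, at 0.14 TPM or less in H929, was lost on leaving out any H929 library and in DESeq2. That of PTPRE was lost under 6 of 18 alternatives, and that of PTPRN2, a lower gene, under 4 of 18. PTPRR, a phosphatase of MAP kinases, was at 0.15 and 0.17 TPM in ethanol and 1.21 and 1.59 in fluvastatin, a log2 rise of 3.16 (SE 0.36, adjusted p = 0.00012). PTPRB, the vascular endothelial phosphatase, rose by 2.23 (SE 0.41, adjusted p = 0.00234) at no more than 0.14 TPM. PTPRG, the closest relative of PTPRZ1, went from 14.2 and 15.1 to 32.8 and 41.1 TPM in H929, a rise of 1.3 (SE 0.11, adjusted p = 1.99e-05). In KMS11 it was at 2.76 and 2.70 TPM in ethanol and 2.93 and 3.37 in fluvastatin, and the difference of responses was 0.96 (SE 0.15, adjusted p = 0.00249). PTPRG therefore moved in the direction of PTPRZ1 in H929, from a far higher level and by a smaller factor. PTPRJ, a phosphatase of growth factor receptors, was lower in H929, from 0.81 and 0.89 to 0.22 and 0.23 TPM (log2 -1.46, SE 0.20, adjusted p = 0.000378), with a difference of responses of -1.22 (SE 0.28, adjusted p = 0.0133) that was lost without the second ethanol library of KMS11 or the first of H929. PTPRR was the 1 gene of the list higher in KMS11, where none was lower, beside 2.58% and 0.533% of all genes. Its summed counts there went from 1 to 41, a 46.5-fold ratio with an interval of 7.89 to 1881, and the call was lost without the first ethanol library of KMS11. DESeq2 called none of the 15 in KMS11, and 5 had an unadjusted p under 0.05 in edgeR. In the difference of responses, 3 were positive and 2 negative, beside 11.5% and 11.7% of all genes. The median was -0.43, or -0.21 without PTPRB, which had no count in untreated KMS11. The family thus had members that moved in both directions.

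Of the other alpha kinases, 1 of 4 tested was higher and 1 lower in H929 (5 listed), too few to set against 22.7% and 19.3% of all genes. ALPK1, a sensor of bacterial sugars, was at 0.07 and 0.12 TPM in ethanol and 0.25 and 0.46 in fluvastatin, a log2 rise of 1.84 (SE 0.28, adjusted p = 0.000585). In KMS11 it was at 1.29 and 0.88 TPM in ethanol and 0.82 and 0.72 in fluvastatin, with a difference of responses of 2.16 (SE 0.35, adjusted p = 0.00263). As with ALPK2, the level in treated H929 stayed below that in KMS11. TRPM6, a magnesium channel with an alpha kinase domain, was lower by 0.71 in log2 (SE 0.24, adjusted p = 0.04), a call lost under 6 of 17 alternatives. TRPM7 and EEF2K, at 10.4 and 4.65 TPM in the first ethanol library of H929, had log2 values of 0.06 (SE 0.10) and 0.08 (SE 0.12). In KMS11, where 2.58% of all genes were higher and 0.533% lower, edgeR called 0 of the 4. None had an unadjusted p under 0.05, and DESeq2 called 0.

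Of the enzymes and receptors of endocannabinoids, the pathway of MGLL, 0 of 14 tested were higher and 3 lower in H929 (16 listed). Over all genes 22.7% were higher and 19.3% lower, and the median was -0.06 beside 0.02. In KMS11, where 2.58% of all genes were higher and 0.533% lower, edgeR called 0 of the 14. There, 1 had an unadjusted p under 0.05, and DESeq2 called 0. DAGLB, which makes 2-arachidonoylglycerol, was at 1.02 and 1.04 TPM in ethanol and 1.01 and 0.82 in fluvastatin in H929 (log2 -0.31, SE 0.22, adjusted p = 0.278), while DAGLA, the other such enzyme, was at 0.13 TPM or less. The other hydrolases of that lipid are ABHD6 and ABHD12. ABHD6 had a log2 value of -0.34 (SE 0.18, adjusted p = 0.169). ABHD12 went from 15.8 and 16.4 to 10.4 and 12.2 TPM, a log2 value of -0.42 (SE 0.11, adjusted p = 0.0109), and the difference of responses was -0.59 (SE 0.15, adjusted p = 0.0194). FAAH, which degrades anandamide, was at 0.14 to 0.35 TPM in H929 with a log2 value of 0.84 (SE 0.49, adjusted p = 0.196). The receptor gene CNR1 was at 0.01 TPM or less in H929 and at 0.55 to 1.15 TPM in KMS11, where its log2 value was 1.01 (SE 0.25, adjusted p = 0.0601), and CNR2 was at 0.02 TPM or less in every library. The other genes that passed in H929 were PLCB3, a phospholipase C, at -0.92 (SE 0.31, adjusted p = 0.0371), and ABHD4, a lysophospholipase, at -0.54 (SE 0.18, adjusted p = 0.0329). PLCB3 also differed between lines by -1.46 (SE 0.44, adjusted p = 0.0388). All 3 calls in H929, and the differences for ABHD12 and PLCB3, were lost without the first ethanol library of H929.

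Of the genes of triacylglycerol storage and lipolysis, 3 of 13 tested were higher and 2 lower in H929 (20 listed), shares near the 22.7% and 19.3% of all genes, with a median of -0.13 beside 0.02, or -0.18 without MOGAT2, which had no count in untreated H929. CIDEB, a lipid droplet protein, went from 7.63 and 6.86 to 3.35 and 3.73 TPM, a log2 value of -1.03 (SE 0.15, adjusted p = 0.000518). KMS11 held it at 2.5 and 2.57 TPM in ethanol and 3.21 and 3.36 in fluvastatin, and the difference of responses was -1.53 (SE 0.22, adjusted p = 0.00148). HILPDA, an inhibitor of the lipase PNPLA2, was lower by 0.78 in log2 (SE 0.17, adjusted p = 0.00427), with a difference of responses of -0.85 (SE 0.23, adjusted p = 0.024). PLIN3, a coat protein of lipid droplets, rose by 0.62 (SE 0.17, adjusted p = 0.0138), and ABHD5, the coactivator of PNPLA2, by 0.49 (SE 0.13, adjusted p = 0.0117). The lipases that act before MGLL had log2 values in H929 of 0.06 (SE 0.25) for PNPLA2 and -0.38 (SE 0.40) for LIPE. In KMS11, where 2.58% of all genes were higher and 0.533% lower, edgeR called 0 of the 13. There, 1 had an unadjusted p under 0.05, and DESeq2 called 0. The calls of PLIN3 and ABHD5, and the difference for HILPDA, were lost without the second ethanol library of H929, and that of CIDEB was kept under all 18 alternatives.

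**Figure D3:**
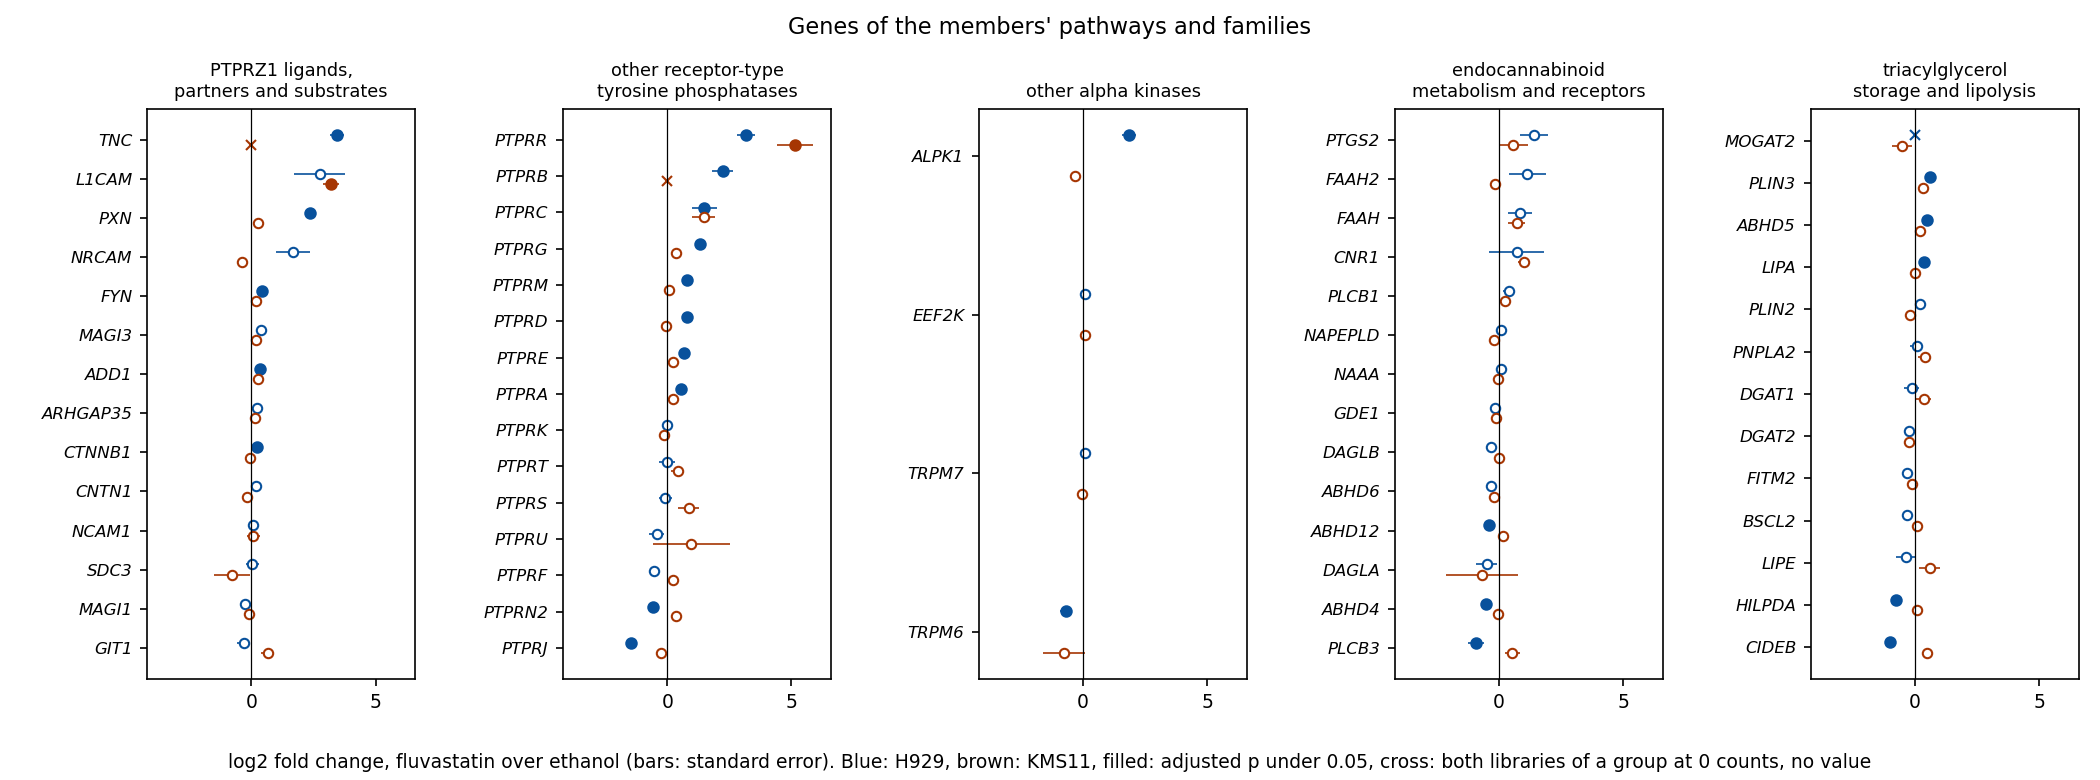
Log2 fold change on fluvastatin with its standard error for the tested genes of the 5 lists, in H929 (blue) and KMS11 (brown), filled where the adjusted p was under 0.05, with a cross where both libraries of a group had no count. In H929, 8 of 15 receptor-type phosphatases were filled on the right and 2 on the left. Of 14 endocannabinoid genes, 0 were filled on the right and 3 on the left. Over all genes, 22.7% were higher and 19.3% lower.

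The nearest protein-coding genes, 5 on either side of each member by gene start, gave 23 tested genes of 30, of which 3 were higher and 5 lower in H929 with a median of -0.22. Over all genes, 22.7% were higher and 19.3% lower, with a median of 0.02, and nothing is read from the neighbors as a list. In KMS11 0 were higher and 1 lower, beside 2.58% and 0.533% of all genes. In the difference of responses 2 were positive and 1 negative, beside 11.5% and 11.7%. Next to ALPK2, MALT1, a paracaspase of NF-κB signaling whose start lies 42.4 kb from that of ALPK2 on the opposite strand, went from 13.4 and 14.3 to 25.0 and 28.9 TPM in H929. The log2 rise was 1.0 (SE 0.11, adjusted p = 7.75e-05). KMS11 held MALT1 at 52.8 and 43.99 TPM in ethanol and 40.3 and 49.9 in fluvastatin, and the difference of responses was 0.95 (SE 0.15, adjusted p = 0.00228). Like ALPK2, MALT1 was at a higher level in KMS11 than in treated H929. Near PTPRZ1, no neighbor was higher in H929. RNF148, at 0.61 TPM or less, was lower by 1.21 (SE 0.39, adjusted p = 0.031), a call lost on leaving out any of 3 of the 4 H929 libraries, and AASS, a lysine catabolism enzyme, had a difference of responses of 0.91 (SE 0.19, adjusted p = 0.0095) without passing in either line.

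Near MGLL, MCM2, a subunit of the replicative helicase whose start lies 454 kb away, went from 37.0 and 36.7 to 9.06 and 9.34 TPM in H929. The log2 value was -1.94 (SE 0.12, adjusted p = 4.54e-06). KMS11 held MCM2 at 40.0 and 38.1 TPM in ethanol and 38.7 and 32.3 in fluvastatin, with a difference of responses of -1.93 (SE 0.17, adjusted p = 0.000145). PODXL2, a sialomucin, was lower in H929 by 1.38 (SE 0.33, adjusted p = 0.00783), and ABTB1 was higher by 1.18 (SE 0.36, adjusted p = 0.0236), a call lost without the first fluvastatin or the second ethanol library of H929. RUVBL1, a chromatin remodeling ATPase, was lower in both lines, by 0.77 in H929 (SE 0.09, adjusted p = 0.000126) and by 0.42 in KMS11 (SE 0.09, adjusted p = 0.0322), and the call in KMS11 was lost without either of its ethanol libraries. SEC61A1, a subunit of the channel into the endoplasmic reticulum, starts 0.549 kb from the annotated start of MGLL on the opposite strand and shares 550 bases with it. It was lower by 0.51 in H929 (SE 0.10, adjusted p = 0.00304), and held 11377 to 23879 counts in a library, far above MGLL. Whether the counting used the strand is not given in the sources used here, so reads from the shared bases cannot be assigned from these tables with certainty. KBTBD12, within MGLL on the opposite strand, had at most 1 count, and no annotated gene overlapped PTPRZ1.

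**Figure D4:**
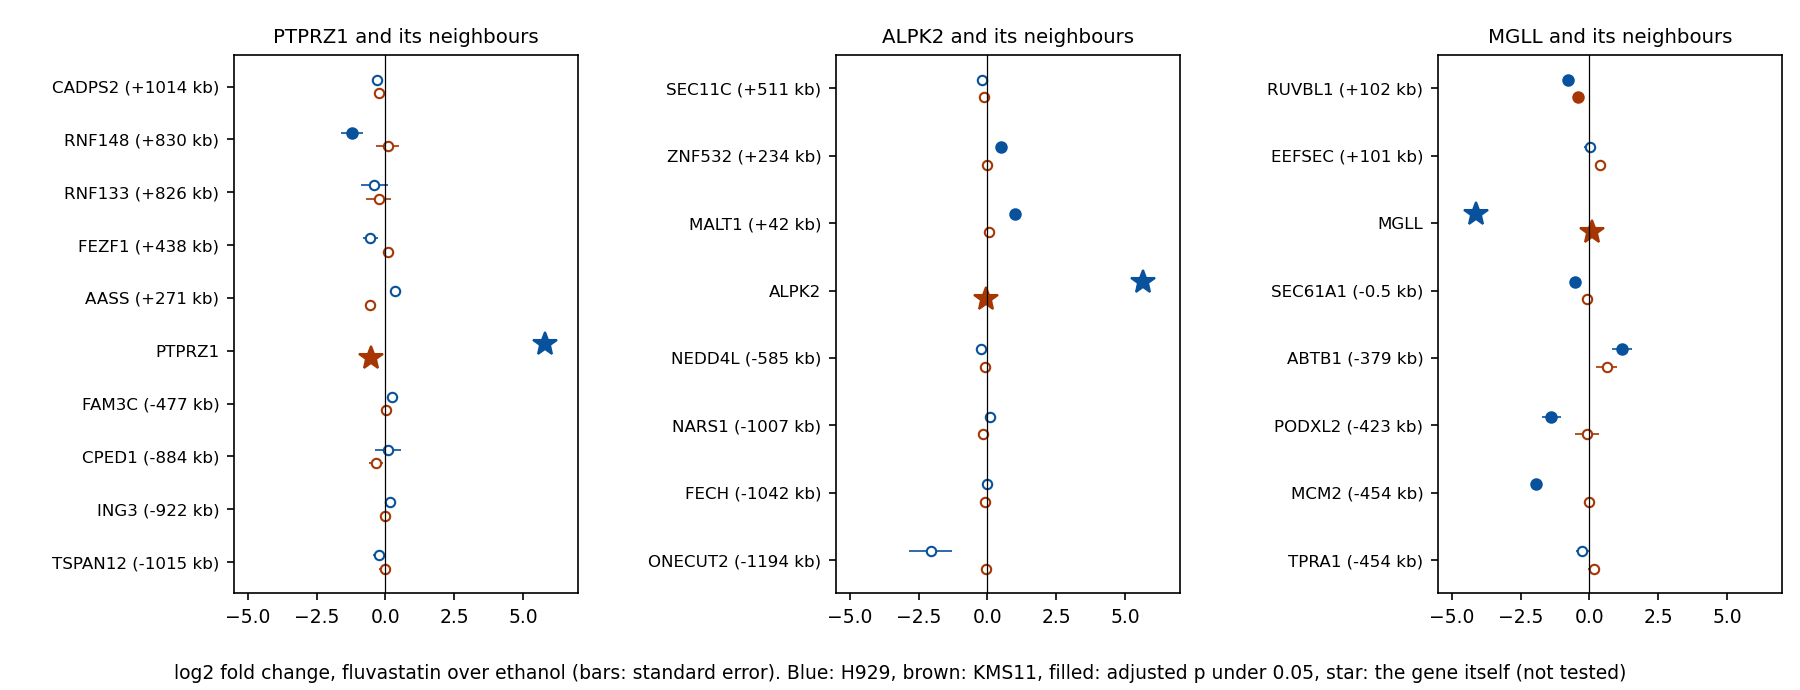
Log2 fold change on fluvastatin with its standard error for tested neighbors of each member, ordered by the distance between gene starts in kb, in H929 (blue) and KMS11 (brown), filled where the adjusted p was under 0.05. Stars mark the members, which were chosen by this response and carry no test. The neighbors ran from -2.06 for ONECUT2 to 1.18 for ABTB1 in H929. ONECUT2 was at 0.07 TPM or less in H929 and was not past the threshold (SE 0.79, adjusted p = 0.06 in edgeR). The lowest neighbor past it was MCM2 at -1.94.

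Markers of the cell types in which the 3 genes are best known were checked in the same libraries. Of 10 glial and neural progenitor markers, SOX10 and S100B were at 0 in every library, and the summed level was 1.31 to 1.51 TPM in untreated and 2.48 to 2.96 TPM in treated H929, with 6 and 3 markers at 0. In KMS11 it was 9.57 to 11.6 TPM in ethanol and 7.68 to 9.52 in fluvastatin, most of it SOX2, a neural progenitor factor, at 5.4 to 8.42 TPM there and at 0 in H929. NCAN, a brain proteoglycan, rose in H929 by 3.17 in log2 (SE 0.62, adjusted p = 0.00272) at no more than 0.26 TPM, and MBP, myelin basic protein, by 0.80 (SE 0.16, adjusted p = 0.00326). OLIG1, an oligodendrocyte factor, was at 0.04 and 0.34 TPM in ethanol and 0 and 0.08 in fluvastatin (log2 -1.89, SE 1.03, adjusted p = 0.17). Of the 5 markers tested, 2 were higher and 0 lower in H929, too few to set against 22.7% and 19.3% of all genes. The part of these markers in the rise of PTPRZ1 was not tested. Of 7 cardiac markers, the sum was 0 to 0.04 TPM in every library, beside the rise of ALPK2. Of 7 adipocyte markers, FABP4, LEP and ADIPOQ were at 0 in every library, and the sum was 1.29 to 3.06 TPM with no separation of the groups. Of 11 stromal, monocyte and T cell markers, the sum was 0.39 to 3.63 TPM, and CD3E rose in H929 by 1.13 (SE 0.23, adjusted p = 0.00309), from 1.49 and 1.59 to 2.92 and 3.54 TPM.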

How the data were processed

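Total RNA was sequenced from 8 libraries, 2 in each group of line and treatment, as the labels give them. The authors aligned stranded, ribosomal RNA-depleted reads to hg38 with STAR 2.5.2b and estimated genes with RSEM 1.3.0 on GENCODE 26. They deposited expected counts, TPM, FPKM and gene lengths for each library. The deposited expected counts, not normalized, were rounded and tested here; the deposited TPM served for levels per length, and the deposited FPKM was not used. Of 58219 identifiers 57392 were found in GENCODE 44, and 19683 of these were protein-coding. edgeR 4.0.16 (R 4.3.3) fitted means of the 4 groups with TMM scaling, its filter by expression (minimum count 10, minimum total 15), its quasi-likelihood test and Benjamini-Hochberg adjustment over 13129 genes. All groups shared 1 estimate of the spread. The study's methods tested both lines together, whereas within-line contrasts were needed here. Depth was 26702515 to 41910446 counts a library; 95% intervals of summed counts are exact and cover counting error only. The methods call the 2 libraries of a group biological replicates, but no source used here says that they were separate cultures. Each p-value sets a change against the spread between libraries of a group, pooled over the 4 groups. A p-value for 1 line thus also rests on the spread in the other line. The members and gene lists were chosen with earlier results of these data known, so no list is independent evidence.

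Named from each list were at most 4 genes past the threshold in H929 by size of change, 2 in KMS11 and 2 in the difference, with fixed ligand, enzyme and receptor genes and, for each member, the 4 most correlated genes whose log2 CPM averaged 1 or more. Other genes were named, after their values were seen, where a count was small, a call was not steady or a role beside a member called for it. These were CTNNB1, PTPRE, PTPRN2, TRPM7, EEF2K, PNPLA2, LIPE, AASS, MOGAT2, ONECUT2, SEC61A1, KBTBD12, and the markers. PTPRD and PTPRM were named only among the results flagged below, as genes past the threshold in the difference of responses. Alternatives were an adjusted p under 0.01, median-of-ratios and library size scaling, no filter, a minimum count of 50, all annotated genes, a prior count of 2, each library left out, a replicate block, DESeq2 1.42.0, and limma 3.58.1 on log2(TPM + 1) for genes with a mean of at least 0.5 TPM. The fitting code was tested on simulated data.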

Additional observations from a re-analysis of the deposited data

Results flagged for a closer look

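For 22 genes of the lists, marker lists and neighborhoods described, H929 and KMS11 responded unequally to fluvastatin. This was tested as the interaction of line and treatment by quasi-likelihood in edgeR, with p-values adjusted by Benjamini-Hochberg over all genes tested. Over all 13129 genes, the difference of responses was positive for 11.5% and negative for 11.7%, so nothing is read from the number of these genes. Among the relatives and partners of PTPRZ1, the log2 response in H929 minus that in KMS11 was 2.13 for PXN, 0.96 for PTPRG, 0.84 for PTPRD and 0.76 for PTPRM, and it was -1.22 for PTPRJ and -0.91 for PTPRN2. Among the other alpha kinases it was 2.16 for ALPK1. In the lipid lists it was -1.46 for PLCB3, -0.59 for ABHD12, -1.53 for CIDEB and -0.85 for HILPDA. Among the neighboring genes it was -1.93 for MCM2 near MGLL, 0.95 for MALT1 near ALPK2 and 0.91 for AASS near PTPRZ1. Among the plasma cell markers it was -1.27 for SDC1, -0.87 for SLAMF7, -0.51 for POU2AF1, 0.64 for JCHAIN and 0.46 for PRDM1, and among those of other cell types 3.28 for NCAN, 1.18 for MBP and 1.69 for CD3E. Of these, PXN, PTPRG, CIDEB, MALT1, MCM2, AASS, SDC1 and MBP passed under all 18 alternatives, and each of the others lost its call under at least 1. No group had enough libraries for a test of single outlying libraries.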

How the results depend on the processing

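Each member kept its direction in H929 and in the difference of responses under every alternative that gave a value, and PTPRZ1 was under the minimum TPM of the limma fit and had none there. Leaving out 1 library, the log2 response in H929 ran from 5.32 to 6.64 for PTPRZ1, from 4.98 to 6.11 for ALPK2 and from -4.64 to -3.79 for MGLL. The response in KMS11 ran from -0.96 to 0.019 for PTPRZ1, where the sign turned to 0.019 without the second ethanol library of KMS11, from -0.14 to 0.022 for ALPK2, and from -0.12 to 0.23 for MGLL, which was below 0 without the first ethanol or the second fluvastatin library of KMS11 and in limma (-0.02). The difference of responses ran from 5.74 to 7.16, from 5.02 to 6.15 and from -4.73 to -3.87, and the untreated H929 minus KMS11 value from -3.08 to -1.68 for PTPRZ1, from -9.16 to -8.45 for ALPK2 and from -0.42 to -0.09 for MGLL.

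On log2(TPM + 1) in limma, which shrinks changes of low genes, ALPK2 was at 1.004 in H929, -0.20 in KMS11, 1.201 in the difference and -3.83 between untreated lines, and MGLL at -0.66 in H929 and -0.64 in the difference. With a prior count of 2, MGLL was at -3.76 in H929 and -3.85 in the difference, and ALPK2 at -8.44 between untreated lines. At an adjusted p under 0.01, the calls were 3538 in H929 (5511 at 0.05), 129 in KMS11 and 1258 in the difference (3048 at 0.05), and in H929 2 for partners of PTPRZ1, 1 for other alpha kinases, 0 for endocannabinoid genes and 2 for triacylglycerol genes. The 409 calls in KMS11 became 1098 with no filter, 926 in DESeq2 and 253 in limma, and ran from 63 to 2148 leaving out 1 library. The calls in the difference ran from 1309 to 4269, and were lowest without either ethanol library of KMS11, the first ethanol or the second fluvastatin library of H929. In H929 limma called 5 receptor-type phosphatases and 0 other alpha kinases, and DESeq2 called 1 other alpha kinase. Leaving out 1 library, the list counts ran from 2 to 5 for partners of PTPRZ1, 1 to 2 for other alpha kinases, 0 to 3 for endocannabinoid genes and 3 to 7 for triacylglycerol genes.

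Libraries with the same replicate number deviated together in H929 (r = 0.774 over 5561 genes) but not in KMS11 (r = -0.08), and no label says what a number shares, so with 2 libraries a group the numbers were not taken to pair the samples. With the replicate number as a replicate block within each line, the calls were 6426 in H929, 1637 in KMS11 and 4227 in the difference, and PTPRZ1, ALPK2 and MGLL were at 5.78, 5.61 and -4.15 in H929. In the lists, the block gave 7 partners of PTPRZ1 (5 without it) and 7 triacylglycerol genes (5 without it) in H929. In KMS11 it gave 2 partners and 3 receptor-type phosphatases (1 each without it), 1 endocannabinoid and 1 triacylglycerol gene (0 without it) and 2 neighbors (1 without it). In the difference it gave 2 partners (1 without it), 4 triacylglycerol genes (2 without it) and 5 neighbors (3 without it). Depth limits PTPRZ1 and ALPK2 in untreated H929, at 12 counts each over both libraries, and MGLL in treated H929, at 9 counts.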
